A study of Homo sapiens with 8 samples.

Results

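PIEZO1 encodes a very large membrane protein that opens a cation channel when the membrane is stretched. It lets calcium into cells exposed to shear flow, pressure or indentation, and HEK293 cells are a common place to study it. The RNA of this gene was examined here as a binding partner of TIA1 and RBFOX2. Its members were the peaks on the minus strand that overlapped the hg19 span chr16:88781001-88852000, which holds the gene. The gene itself was chosen by its deposited peaks, since this stretch of chromosome 16 is among the densest of the TIA1 list. This gave 27 of the 7442 peaks of the series, 23 from the TIA1 list of 3215 and 4 from the RBFOX2 list of 4227.

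The peaks come from eCLIP, a method that fixes proteins to the RNA they touch with ultraviolet light, pulls down 1 protein and sequences the RNA attached to it. All 8 libraries were made from HEK293T, a line of human embryonic kidney cells with the SV40 large T antigen, irradiated with 600 mJ. For each protein there were 2 immunoprecipitated libraries (clip), pulled down with an antibody to the HA tag, and 2 input libraries without immunoprecipitation. The growth protocol calls the cells HEK293. A protocol text shared by the libraries mentions TIA1-bound beads, and whether replicates were biological or technical is stated differently in different places. The identity of the cells could not be checked against marker genes, since peak lists give no expression level.

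Each deposited list joins both replicates of 1 protein, and each row carries a log2 fold and a −log10 p, both the authors' own values. The fold was taken to be clip relative to input, the libraries that the labels tie to each list. No peak in either list has a log2 fold under 3, and the lowest −log10 p, rounded, is 3.01, so weaker binding is not seen. There is no value per replicate and no read count, so the depth is unknown, no spread between replicates can be given and no test was made. Because the choice used peak numbers, several measures are given as descriptions. These are the number and width of TIA1 peaks, how close together they lie, how often they abut and the balance of the proteins. Intervals below are exact binomial 95% intervals over peaks. Neighbouring peaks are not independent, so the intervals may be too narrow.

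TIA1 favours U-rich stretches of RNA, regulates splicing near weak 5′ splice sites, restrains the translation of some mRNAs and gathers in stress granules. RBFOX2 regulates alternative splicing and binds the element GCAUG, mostly in introns beside the exons it controls. PIEZO1 is transcribed from the minus strand, so positions are given here from the 5′ edge of the span, the end with the higher coordinate, to the 3′ edge. The edges are rounded to whole kb and are not the exact ends of the gene.

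The exons of PIEZO1 are crowded towards its 3′ end. In the GENCODE 29 annotation, which is on GRCh38, the longest coding transcript of PIEZO1 has 51 exons and the gene is 69.9 kb long. The first intron takes 35.4 kb, or 50.7% of the gene, and 50 of the exons lie past the midpoint. The 3′-most 30% alone holds 40 exons, with a median exon length of 149 bases over the transcript. No annotation of hg19 was at hand, so these figures describe the gene, and no peak was assigned to an exon or an intron.

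The spliced transcript shows which letters known for each protein are at hand in the mature RNA. It is 8089 bases long, and 18.5% of its letters are U, against a median of 24.9% over the longest coding transcript of each of 18026 genes (those of at least 1000 bases). Only 10.9% of these transcripts have a smaller share of U. The G and C share is 64.3%, against a median of 49.0%. A search for TTTTT on the transcribed strand, counting overlapping matches, gave 0.865 per kb in PIEZO1, against a median of 2.49 per kb, and 86.8% of all the transcripts hold at least 1. All matches in PIEZO1 fell in 2 runs, printed from the GENCODE 29 transcript with 10 flanking bases on each side and the run in capitals. They are shown because they are the only stretches of 5 or more T in the mature RNA.
T run in exon 41: atcatcatcaTTTTTggcttctggg
T run in exon 51: tactgtagagTTTTTTTTTTaattaaaaaa

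The first run starts at base 6183 of the transcript. The second, of 10 T, starts at base 8041, close to the 3′ end in the last exon. GCATG, the DNA form of the RBFOX element, occurred 7 times on the transcribed strand, or 0.865 per kb, close to the median of 0.845 per kb, and 89.2% of the transcripts hold it at least once. It does not overlap TTTTT. The first and the last match are printed to show the ends of the stretch that holds the element, with GCATG in capitals.
GCATG in exon 14: gtgtgtgctgGCATGttcatcgtgg
GCATG in exon 45: gtcaagtacgGCATGggtggcctca

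All 7 matches lay between bases 2013 and 6781, and none in the first exon. Intron sequence was not analysed here, and introns make up most of the span, so these letters say nothing of what lies under a peak.

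TIA1 peaks sat in the 3′ part of PIEZO1 and RBFOX2 peaks lay 5′ of them. All 23 TIA1 peaks fell within 14.5 kb, from 71.7% to 92.1% of the way along the span, with none in its first 70%. The stretches from 70 to 80%, from 80 to 90% and from 90 to 100% held 4, 11 and 8 TIA1 peaks. Of the 4 RBFOX2 peaks, 3 lay within the first 10% and 1 between 60 and 70%. Every TIA1 peak was thus 3′ of every RBFOX2 peak, and no peak of one list overlapped a peak of the other (0 of 23 TIA1 peaks, 0 of 4 RBFOX2 peaks). Over the whole lists, 24.0% of TIA1 peaks overlapped an RBFOX2 peak and 21.7% of RBFOX2 peaks overlapped a TIA1 peak. The exact interval for 0 of 23 reaches to 14.8%, and for 0 of 4 to 60.2%.

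**Figure D1:**
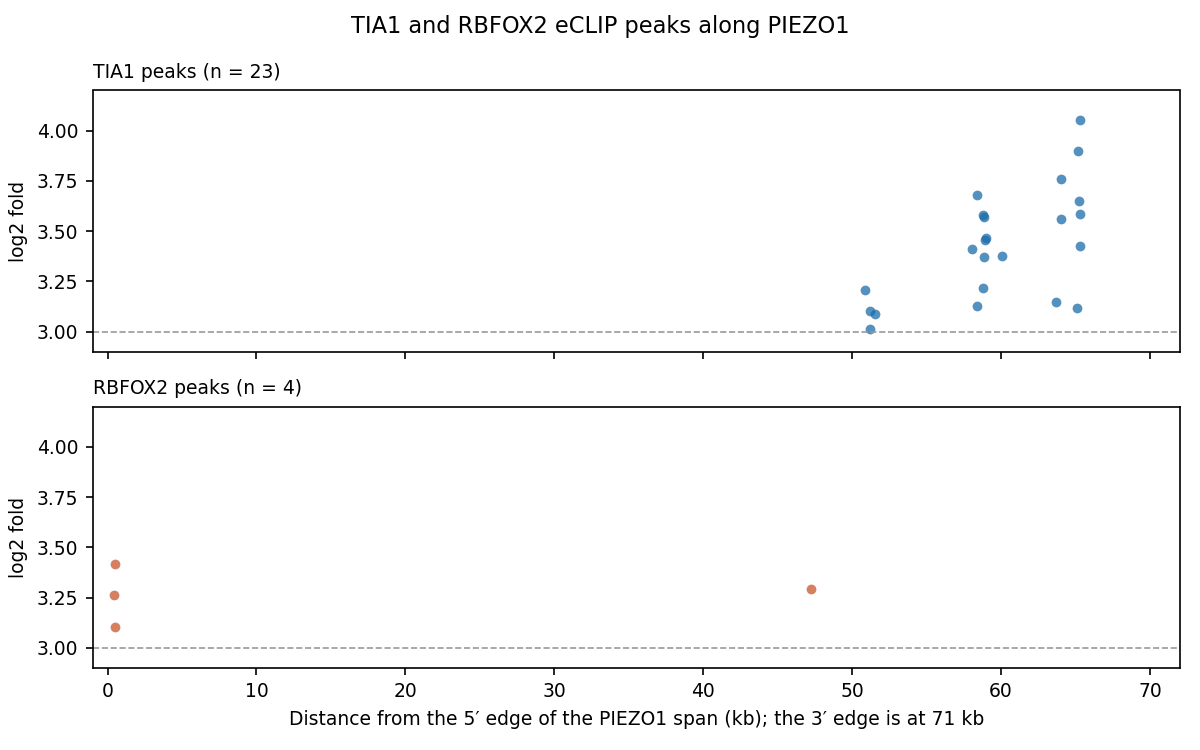
The authors' log2 fold of each peak (vertical axis) is plotted against its distance in kb from the 5′ edge of the PIEZO1 span (horizontal axis), with 23 TIA1 peaks above and 4 RBFOX2 peaks below, and the dashed line at the lists' lower limit of 3. TIA1 peaks lie between 50.9 and 65.3 kb, and RBFOX2 peaks lie at 0.407 to 0.489 kb and at 47.2 kb.

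The RBFOX2 peaks formed 2 sites. Near the 5′ edge, 3 abutting peaks made 1 unbroken site of 111 bases at chr16:88851483-88851593. Its first peak, 62 bases wide, had a log2 fold of 3.26 and a −log10 p of 5.54. The middle peak, 20 bases wide, had the highest RBFOX2 fold of the gene, 3.42 (10.7-fold), and a −log10 p of 6.06. The third, 29 bases wide, had a log2 fold of 3.10 and a −log10 p of 5.17. The site began 407 bases inside the edge of the span, and 46.7 kb without a peak of either list followed it.

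The other RBFOX2 peak stood alone at chr16:88804721-88804760, where 40 bases had a log2 fold of 3.29 and a −log10 p of 4.60. It was the nearest RBFOX2 peak to the TIA1 peaks, and 3613 bases separated it from the first of them. All 4 RBFOX2 folds lay below the median of the RBFOX2 list, 3.48. None reached a log2 fold of 4, a level passed by 19.3% of that list, and 3 of 4 had a −log10 p of at least 5, against 68.4% of the list. The 3 peaks at the 5′ edge were the ones that abutted a neighbour, as 43.4% of the list did, and that had another RBFOX2 peak within 1 kb, as 66.5% did. None of the 4 was under 20 bases wide, a class that made up 9.79% of the list.

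The 23 TIA1 peaks fell into 5 groups when peaks within 1 kb were put together. The most 5′ group held 4 peaks over 649 bases, from chr16:88801059-88801107, which was 49 bases wide with a log2 fold of 3.21 and a −log10 p of 7.82, to a 3-base peak at 88800459 with a log2 fold of 3.09. These 4 had the lowest median fold of the groups, 3.09, with a range of 3.01 to 3.21. A stretch of 6485 bases without a peak followed.

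The second group was the largest, with 9 peaks over 941 bases at chr16:88793033-88793973. Its median log2 fold was 3.46, with a range of 3.13 to 3.68, and its −log10 p ranged from 4.53 to 10.1. The highest fold there, 3.68, belonged to a 5-base peak at 88793596 to 88793600. It abutted a 51-base peak with a log2 fold of 3.13, whose −log10 p of 10.1 was the highest of the group and the fifth in the gene. The third group was a single peak of 6 bases at 88791922 to 88791927, with a log2 fold of 3.38 and a −log10 p of 5.80. It lay 1105 bases past the second group.

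The fourth group had 3 peaks over 398 bases. A 30-base peak with a log2 fold of 3.15 was followed, after 347 bases, by abutting peaks of 14 bases at 88787953 to 88787966 and 7 bases, with log2 folds of 3.76 and 3.56. The fold of 3.76 was the third highest in the gene.

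The last group, at chr16:88786627-88786928, had the highest medians of both measures. Its 6 peaks had a median log2 fold of 3.62 and a median −log10 p of 11.1, against medians of 6.60, 6.60, 5.80 and 7.50 in the groups before it. A 94-base peak, the widest in the gene, opened it with a low log2 fold of 3.12 and a −log10 p of 11.6. Next came abutting peaks of 13 bases at 88786800 to 88786812, with a log2 fold of 3.90 and a −log10 p of 12.1, and of 7 bases, with 3.65 and 10.6. The 3 remaining peaks abutted one another in the longest unbroken run of TIA1 peaks in the gene, chr16:88786627-88786691. In 5′ to 3′ order they were 4, 13 and 48 bases wide, with log2 folds of 3.43, 4.05 and 3.58 and −log10 p values of 8.34, 9.51 and 13.7. The middle one, at 88786675 to 88786687, had the highest TIA1 fold of the gene (16.6-fold), and the last had the highest −log10 p. The run ended 5.63 kb from the 3′ edge.

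**Figure D2:**
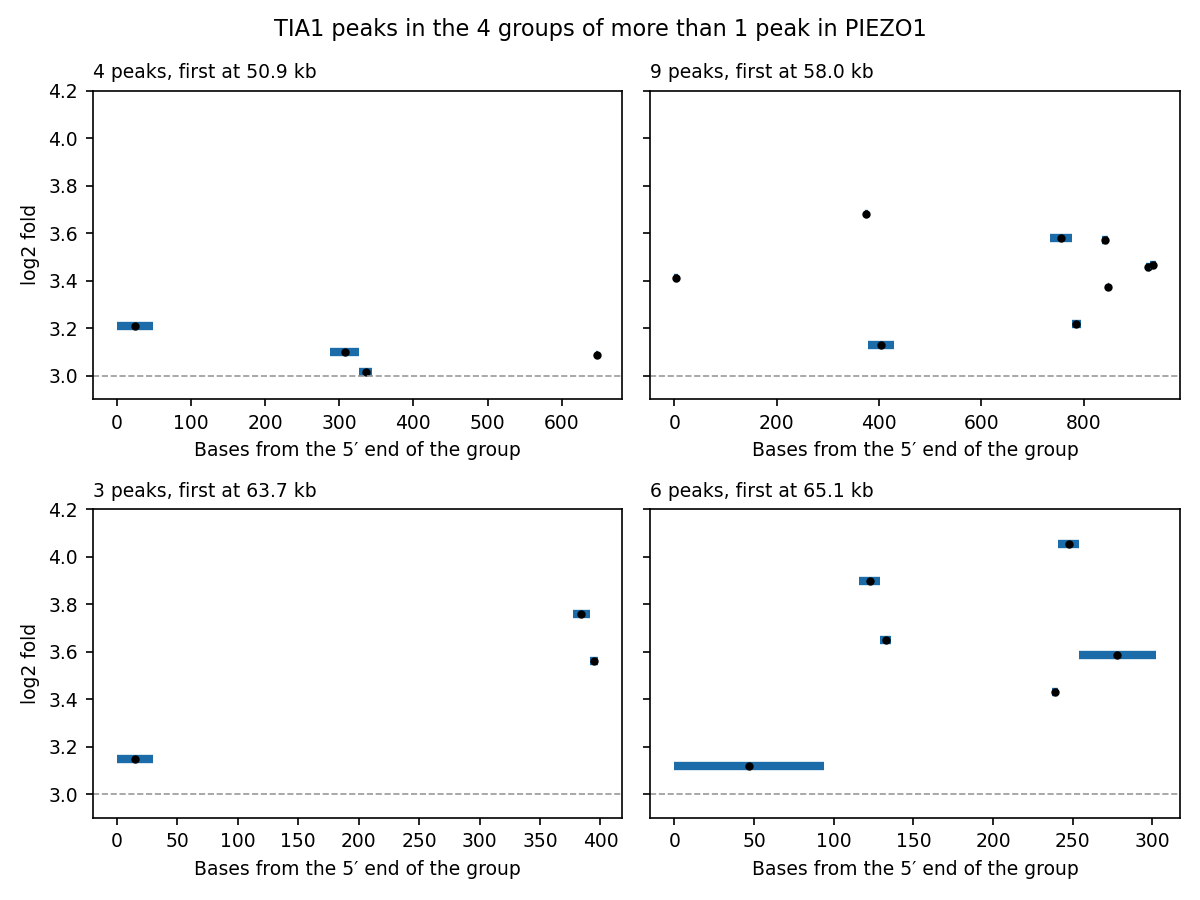
Each bar is a TIA1 peak drawn to its width with a dot at its centre, placed by its distance in bases from the 5′ end of its group (horizontal axis) and by its log2 fold (vertical axis), for the 4 groups of more than 1 peak. Folds stay between 3.01 and 3.21 in the group of 4 peaks and spread from 3.12 to 4.05 in the group of 6, and wide bars sit beside very short ones.

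As a set, the TIA1 peaks of PIEZO1 lay near the middle of the TIA1 list in fold and −log10 p. Their median log2 fold was 3.43 (interval 3.21 to 3.58), against 3.36 in the whole TIA1 list, and their median −log10 p was 7.82, against 7.36. Only 1 of 23 had a log2 fold of at least 4, or 4.35% (0.110 to 21.9%), against 9.21% of the list. A −log10 p of at least 5 was reached by 22 of 23, or 95.7% (78.1 to 99.9%), against 71.4% of the list. The one below it was a 3-base peak at 88793124 to 88793126, with a −log10 p of 4.53. The 4 RBFOX2 folds, from 3.10 to 3.42, all lay within the range of the TIA1 folds in the gene, 3.01 to 4.05.

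In width they differed from the list. A stretch split into several short peaks adds more to a peak count, so a choice by that count can favour short peaks. The widths are therefore given as a description. The median TIA1 peak in PIEZO1 was 13 bases wide (interquartile range 6.5 to 34.5), against 61 bases in the list (27 to 94). Of the 23 peaks, 16 were under 20 bases, or 69.6% (47.1 to 86.8%), against 18.8% of the list. In all they covered 499 bases, 3.45% of the 14.5 kb they spanned. The short peaks held 145 of these bases. Their median log2 fold was 3.46, against 3.15 in the 7 wider peaks, whereas in the whole list the medians were 3.34 for peaks under 20 bases and 3.36 for the rest. The −log10 p ran the other way, with a median of 7.22 in the short peaks of PIEZO1 and 9.96 in the wider ones. In the list these medians were 7.39 and 7.35. The log2 folds overlapped in PIEZO1, from 3.01 to 4.05 in the short peaks and from 3.10 to 3.58 in the 7 wider ones.

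**Figure D3:**
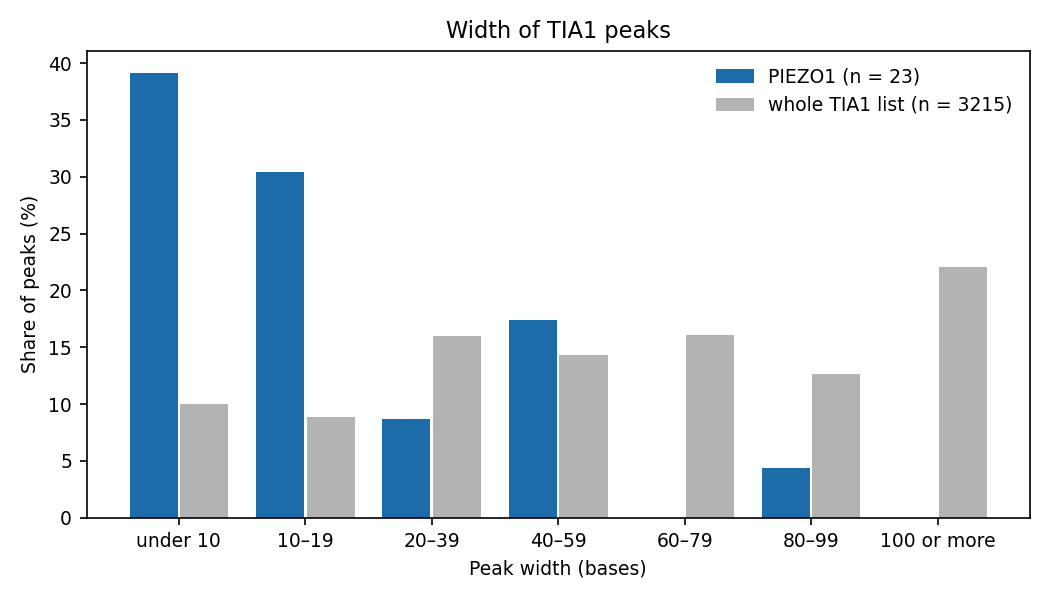
Bars give the share of TIA1 peaks (vertical axis, percent) in each class of width in bases (horizontal axis), in blue for the 23 peaks of PIEZO1 and in grey for all 3215 peaks of the list. Peaks under 10 bases make up 39.1% in PIEZO1 and 9.98% in the list, and those of 100 bases or more 0% and 22.1%.

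Most TIA1 peaks stood edge to edge with another. In PIEZO1 17 of 23 TIA1 peaks abutted a neighbour, or 73.9% (51.6 to 89.8%), against 35.3% of the list. They formed 8 unbroken runs, 7 of them pairs. In 6 of the 7 pairs the peak on the 5′ side had the higher fold, and in 1 of 7 the shorter peak did. These 2 counts were not made for the abutting pairs of the whole list, so they are not read as a trait of the gene. The difference in log2 fold within a run ranged from 0.0094 to 0.63. The median distance between the centres of neighbouring peaks was 76.5 bases (interval 28 to 369), against 119.75 bases for neighbours up to 71 kb apart in the whole list, and single distances in the gene ran from 6.5 to 6490.5 bases. Another TIA1 peak lay within 1 kb of 22 of the 23, or 95.7%, against 53.7% of the list. A gene chosen for many TIA1 peaks will tend to have them close together, so nothing is read from these shares and distances. With peaks within 50 bases joined, 12 TIA1 sites remained, 7 of them made of 18 peaks and 5 of a single peak. This is 1.92 peaks per site in PIEZO1, against 1.33 in the list.

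The balance of the proteins leaned to TIA1. TIA1 supplied 85.2% of the peaks in PIEZO1 (66.3 to 95.8%), against 43.2% of the peaks of both lists. Counted as joined sites, the numbers were 12 for TIA1 and 2 for RBFOX2, or 85.7% (57.2 to 98.2%), against 46.7% in the lists. By covered length TIA1 had 499 bases and RBFOX2 151 bases, or 76.8%, against 40.3%. With peaks under 20 bases left out of both lists, 7 TIA1 and 4 RBFOX2 peaks remained in PIEZO1, or 63.6%. The whole lists then held 2609 TIA1 and 3813 RBFOX2 peaks. No interval was computed for this share, which rests on few peaks, so whether it differs from the lists was not tested. The 2 immunoprecipitations may differ in yield and depth, which are not known here, and RNA without a peak in a list may still be bound.

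No other minus-strand peak of either list lay between 88 and 89 Mb of chromosome 16 (0 TIA1 and 0 RBFOX2), so the neighbourhood gave no peaks to compare with. The nearest minus-strand TIA1 peaks outside the span were 910.8 kb below it and 704.7 kb above it, with log2 folds of 3.16 and 3.81. The nearest RBFOX2 peaks were 877.9 kb below and 961.0 kb above, with 3.87 and 3.05. In the coding genes beside it in the GRCh38 annotation, CTU2 and CDT1 are on the plus strand, and RNF166 and APRT, on the minus strand, come next. The plus strand of the same 1 Mb held 2 TIA1 peaks and 1 RBFOX2 peak, none of them within the PIEZO1 span. A TIA1 peak at 88636847 to 88636972 and the RBFOX2 peak at 88636844 to 88636974 nearly coincided there, 144.0 kb from the span, with log2 folds of 3.06 and 3.14. On the minus strand from 87 to 88 Mb there were 2 TIA1 and 7 RBFOX2 peaks, and from 89 to 90 Mb 4 and 1. The whole minus strand of chromosome 16 held 80 TIA1 and 83 RBFOX2 peaks, PIEZO1 included.

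For likeness, windows of 71 kb on 1 strand, each opened at a TIA1 peak and taken without overlap from the fullest downward, were laid over the genome. Of 1641 windows, 3 held more TIA1 peaks than the 23 of PIEZO1 and none held the same number. The fullest was on chromosome 1 at 19439018 to 19499451, minus strand, with 30 TIA1 and 17 RBFOX2 peaks. Next were chromosome 21 at 47406859 to 47423436, plus strand, with 27 and 6, and chromosome 8 at 145620235 to 145660861, minus strand, with 25 and 1. After PIEZO1 came chromosome 19 at 54962517 to 54969137, plus strand, with 20 TIA1 and 4 RBFOX2 peaks. The windows were opened and ranked by TIA1 peaks, a choice that favours TIA1 in their counts. Counted as joined sites, 1 window held more than PIEZO1 and 2 held the same number.

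Among the 22 windows with at least 10 TIA1 peaks, the balance in PIEZO1 was a middling one. In 9 of them the share of TIA1 was higher than its 85.2%, the median share was 82.6%, and 4 had no RBFOX2 peak at all. Its median log2 fold of 3.43 lay above that of 11 of the 21 others and below that of 10. The share of peaks under 20 bases, 69.6%, was exceeded in 1 of the 21, and the median over the 21 was 36.4%. By median width, 13 bases in PIEZO1, 4 of the 21 were narrower, 1 was equal and 16 were wider. The median of these widths over the 21 was 25 bases. The median distance between centres, 76.5 bases in PIEZO1, was shorter in 9 of the 21 and longer in 12, with a median of 131.5 bases over the 21. The number of peaks per joined site, 1.92 in PIEZO1, was lower in 12 of the 21 and higher in 9, with a median of 1.83. At least 1 TIA1 peak overlapped an RBFOX2 peak in 14 of the 21, and none did in the other 7 and in PIEZO1. For RBFOX2 alone, 1801 windows were opened in the same way at RBFOX2 peaks, with a median of 1 peak per window. Of these windows, 215 held more than the 4 RBFOX2 peaks of PIEZO1 and 91 others held 4.

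**Figure D4:**
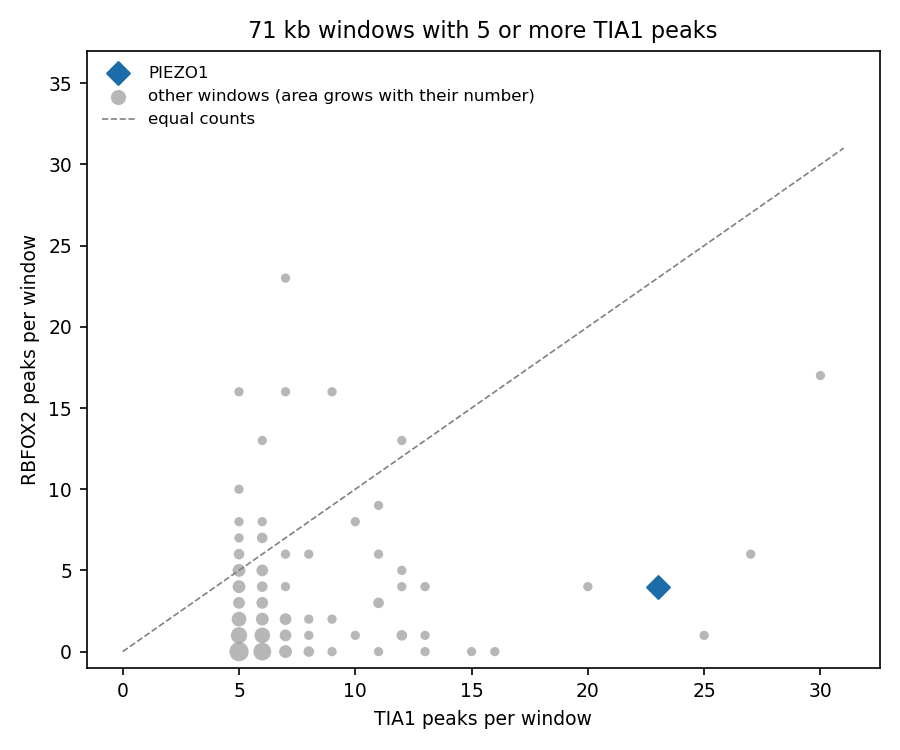
TIA1 peaks (horizontal axis) are plotted against RBFOX2 peaks (vertical axis) per 71 kb window on 1 strand, for the 120 windows with 5 or more TIA1 peaks, with PIEZO1 as the blue diamond and a dashed line where the counts are equal. PIEZO1, at 23 TIA1 and 4 RBFOX2 peaks, lies below the line with 3 windows further to the right.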

How the data were processed

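Peaks of TIA1 and RBFOX2 were taken from 1 deposited list per protein, each tied by the labels to 2 clip and 2 input libraries. The submitters' processing notes name UMI-tools 1.0.0, cutadapt 1.14, STAR 2.4.0i, SAMtools 1.6 and the hg19 build, without roles. Which peak caller was used is not stated in those notes or in the labels. The lists have no header. From the values, the deposited column 4 was read as −log10 of a p-value and the deposited column 5 as a log2 fold. Coordinates are 1-based, and a peak spans its first to its last base.

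Peaks were kept if they overlapped the span by at least 1 base on the minus strand. Overlap needed 1 shared base on the strand, and sites joined peaks within 50 bases. Shares have Clopper-Pearson intervals and medians have intervals from order statistics. Named TIA1 peaks were the 5 highest by fold and by −log10 p, the first and last, and the longest abutting run; others named were chosen after their values were seen. The gene, rules and alternatives were chosen with earlier results of these data known. Counting steps were tested on planted positions with known answers, taken from the TIA1 list for overlaps and artificial for the other steps. Sequences and the gene model come from GENCODE 29 on GRCh38. The work used matplotlib 3.10.9, scipy 1.17.1, numpy 2.4.6, pandas 2.3.3 and Python 3.11.15.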

Additional observations from a re-analysis of the deposited data

How the results depend on the processing

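Of 50 recomputed values over 8 results, 36 stayed within 1.5 times the reported count or within the interval of the reported value, and 14 moved. Joining peaks within 50 bases left 12 TIA1 and 2 RBFOX2 peaks, a median spacing of 391 bases and 1 fuller window. Leaving out peaks under 20 bases left 7 TIA1 peaks, a TIA1 share of 63.6%, a median log2 fold of 3.15, a spacing of 899.5 bases and 11 fuller windows. A log2 fold of at least 4 left 1 TIA1 and 0 RBFOX2 peaks, a share of 100%, a median of 4.05 and 47 fuller windows, with no spacing to compute. Peaks under 20 bases made up 69.6% of the TIA1 peaks in PIEZO1 and 18.8% of the list. What moved each value was not tested. None of the results moved with a −log10 p of at least 5 or a span wider by 5 kb. The same held for peaks wholly inside and for an RBFOX2 list cut to the TIA1 length. The overlap stayed at 0 under every setting, including a 50% overlap and a 50-base distance. No setting could have raised it, since the nearest TIA1 and RBFOX2 peaks in the gene lay 3613 bases apart. Of the 36 values that stayed, 9 were this overlap. Another 6 were the share of minus-strand TIA1 peaks at 88 to 89 Mb that lay in PIEZO1. That share was 100% with no such peak outside the span, so it could not move either. The settings for window counts were added after seeing the data. No paired analysis was possible because the replicates of a protein share 1 list, which also means that none could be left out.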
